A study of Mus musculus with 48 samples.

Results

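The transcripts of 6 subunits of AMP-activated protein kinase (AMPK) were followed in the hippocampal Cornu Ammonis of 48 male mice. These were Prkaa1 and Prkaa2 for the catalytic α1 and α2 subunits, Prkab1 and Prkab2 for the β1 and β2 subunits, and Prkag1 and Prkag2 for the γ1 and γ2 subunits. They are 6 of the 24421 genes counted. The family was selected on the open field contrast, in which Prkab2 was higher in both mouse lines, so all open field values of the subunits are given as a description and support nothing. Prkag3, which encodes γ3, is not among them; it never exceeded 7 counts in a library and was at 0 in 6 libraries. All 6 members passed the filter on low counts in every comparison.

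AMPK is an energy sensor made of 1 catalytic α, 1 scaffolding β and 1 nucleotide-binding γ subunit. The γ subunit binds AMP, ADP and ATP, the α subunit phosphorylates the targets, and the β subunit holds the complex together and carries a glycogen-binding region. When energy runs low, the kinase restrains biosynthesis and favors pathways that yield ATP, and in neurons it is known to respond to synaptic activity and calcium. Upstream, it is switched on by the kinases LKB1 (Stk11) and CaMKK2.

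In the Glu-CB1 line (nex-cre x CB1f/f), Cre is driven by Nex regulatory elements and removes the cannabinoid receptor CB1 from glutamatergic neurons. In the GABA-CB1 line (dlx5/6-cre x CB1f/f), Cre is driven by Dlx5/6 elements and removes CB1 from GABAergic neurons. Both genotypes of a line, CB1-WT and CB1-KO, bear the same strain entry, and which alleles the CB1-WT mice carried is not given there. All mice are listed as 8 weeks old, and they were either left in the basal state in the home cage or placed in an open field for 5 min. Per the study's text, the tissue of open field mice was taken after a delay, not at the end of the 5 min. In the basal state there were 5 Glu-CB1-WT and 7 Glu-CB1-KO mice, and 6 mice each of GABA-CB1-WT and GABA-CB1-KO. After the open field there were 5 Glu-CB1-WT and 7 Glu-CB1-KO mice, and 7 mice of GABA-CB1-WT with 5 of GABA-CB1-KO. These sizes follow the sample labels; the study's text gives the sizes of the last pair of groups the other way round. Each library is 1 mouse, and Glu-CB1 mice or GABA-CB1 mice stands for both genotypes of a line.

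The libraries held 25892654 to 34091080 counted reads. Cnr1, the gene for CB1, lay between 311 and 412 CPM in the 23 CB1-WT libraries. It lay between 204 and 249 CPM in the Glu-CB1-KO libraries and between 100.3 and 158 CPM in the GABA-CB1-KO libraries. Every library thus matched its genotype label, and every CB1-KO library its line. Cnr1 cannot check the line of the CB1-WT libraries or the state of any library. CPM stands for counts scaled to library size (edgeR's CPM with TMM factors). Markers of CA1 and CA3 pyramidal cells were present in every library, and so were those of dentate granule cells, which the dissection was meant to leave out (summed level 85.4 to 274 CPM). Of 22 permutation tests of 11 marker lists between the states in either line, none passed adjustment (lowest Benjamini-Hochberg adjusted p = 0.753). The summed choroid plexus markers ranged from 39.2 to 4016 CPM, and 3 libraries lay over 5 times the median of 64.4 CPM: Glu-CB1-KO basal replicate 6, GABA-CB1-WT basal replicate 3 and GABA-CB1-KO open field replicate 4. Their Prkab2 levels of 65.6, 65.9 and 76.7 CPM lay below the medians of their groups (66.7, 71.5 and 80.0 CPM). The level of GABA-CB1-WT basal replicate 3 was the lowest of its group. In whole tissue, fewer cells of a type and less RNA per cell cannot be told apart.

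The promoter windows of the β subunit genes are shown because their open field differences, given further on, had opposite signs. Each window is the 250 bases before the annotated start in RefSeq (GRCm38.p6), 5′ to 3′ on the gene's own strand, with matches to the GC box GGGCGG on either strand in capitals. The Prkab2 window is chr3:97657962-97658211 on the plus strand, and the Prkab1 window is chr5:116024429-116024678 on the minus strand.
Prkab2: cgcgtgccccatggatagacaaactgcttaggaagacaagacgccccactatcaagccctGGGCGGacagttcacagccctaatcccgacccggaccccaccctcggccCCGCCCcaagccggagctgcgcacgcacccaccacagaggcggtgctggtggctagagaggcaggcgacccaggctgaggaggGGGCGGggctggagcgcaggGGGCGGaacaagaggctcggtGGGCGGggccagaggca
Prkab1: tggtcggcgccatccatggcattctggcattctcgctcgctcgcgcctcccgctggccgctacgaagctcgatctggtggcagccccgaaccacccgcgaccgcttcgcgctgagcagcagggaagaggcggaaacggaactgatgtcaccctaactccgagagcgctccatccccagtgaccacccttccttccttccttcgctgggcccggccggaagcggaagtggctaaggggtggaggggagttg
The Prkab2 window held 5 GC boxes, which begin 190, 141, 58, 38 and 17 bases before the start, and the Prkab1 window held none. Of the other members, the Prkaa1 window held 5 as well, the Prkaa2 window 2, the Prkag1 window 1 and the 3 windows of Prkag2 between 0 and 2. The GC box was searched after the sequences had been seen, and 32.7% of 32851 promoter windows of the same length held at least 1. Both strands were also searched for other motifs. Neither the cAMP response element TGACGTCA (in 1.55% of all windows), nor the E-box CACGTG (6.02%), nor the AP-1 motif TGANTCA (6.75%) was found in any of the 8 windows of the 6 members. The shorter cAMP response motif TGACG, which the longer one contains (17.8% of all windows) was found once each in the windows of Prkaa2 and Prkag1. These matches describe letters only. The GC content was 69.2% for Prkab2 and 65.6% for Prkab1, against a median of 52.4% over all windows.

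Prkab2 lies on chromosome 3 (mm10, 97658212 to 97673067, plus strand) and Prkab1 on chromosome 5 (116013590 to 116024428, minus strand). The catalytic genes lie on chromosome 15 (Prkaa1, 5143861 to 5181899) and chromosome 4 (Prkaa2, 105029650 to 105109898), and the γ genes on chromosome 15 (Prkag1, 98812797 to 98831508) and chromosome 5 (Prkag2, 24862735 to 25100642). The counts cover exons only. No stretch of 50 bases, the read length, was shared between members. Of the stretches in Prkag1 transcripts, 28.8% also occur in transcripts of the antisense gene B130046B21Rik, and 11.5% of those in Prkag2 occur in the antisense genes Prkag2os1 and Prkag2os2. The reads were counted by strand, and the sources used here do not say whether the amplification kept strand, so reads of these antisense genes may be among those of Prkag1 and Prkag2, which was not tested. Prkag2os1 had 0 counts in every library. No other listed gene shared stretches with the α or β genes.

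Within the family, transcript levels spread about 8-fold once divided by exon length. Over the 48 libraries, Prkag2 stood at 45.5 ± 2.59 CPM per kb (SD, n = 48), Prkag1 at 29.5 ± 1.12, Prkab2 at 18.1 ± 2.14, Prkaa1 at 11.8 ± 0.546, Prkaa2 at 7.23 ± 0.545 and Prkab1 at 5.65 ± 0.496 CPM per kb. Each gene lay above the next in all 48 libraries, except that Prkaa2 lay above Prkab1 in 47. The CV within a group was 2.95% for Prkag1 and 3.89% for Prkag2, and between 4.81% and 7.15% for the α and β genes (medians over the 8 groups). Prkab1 was counted between 267 and 442 times per library, the lowest counts of the family, and Prkag2 between 3462 and 5811 times.

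**Figure D1:**
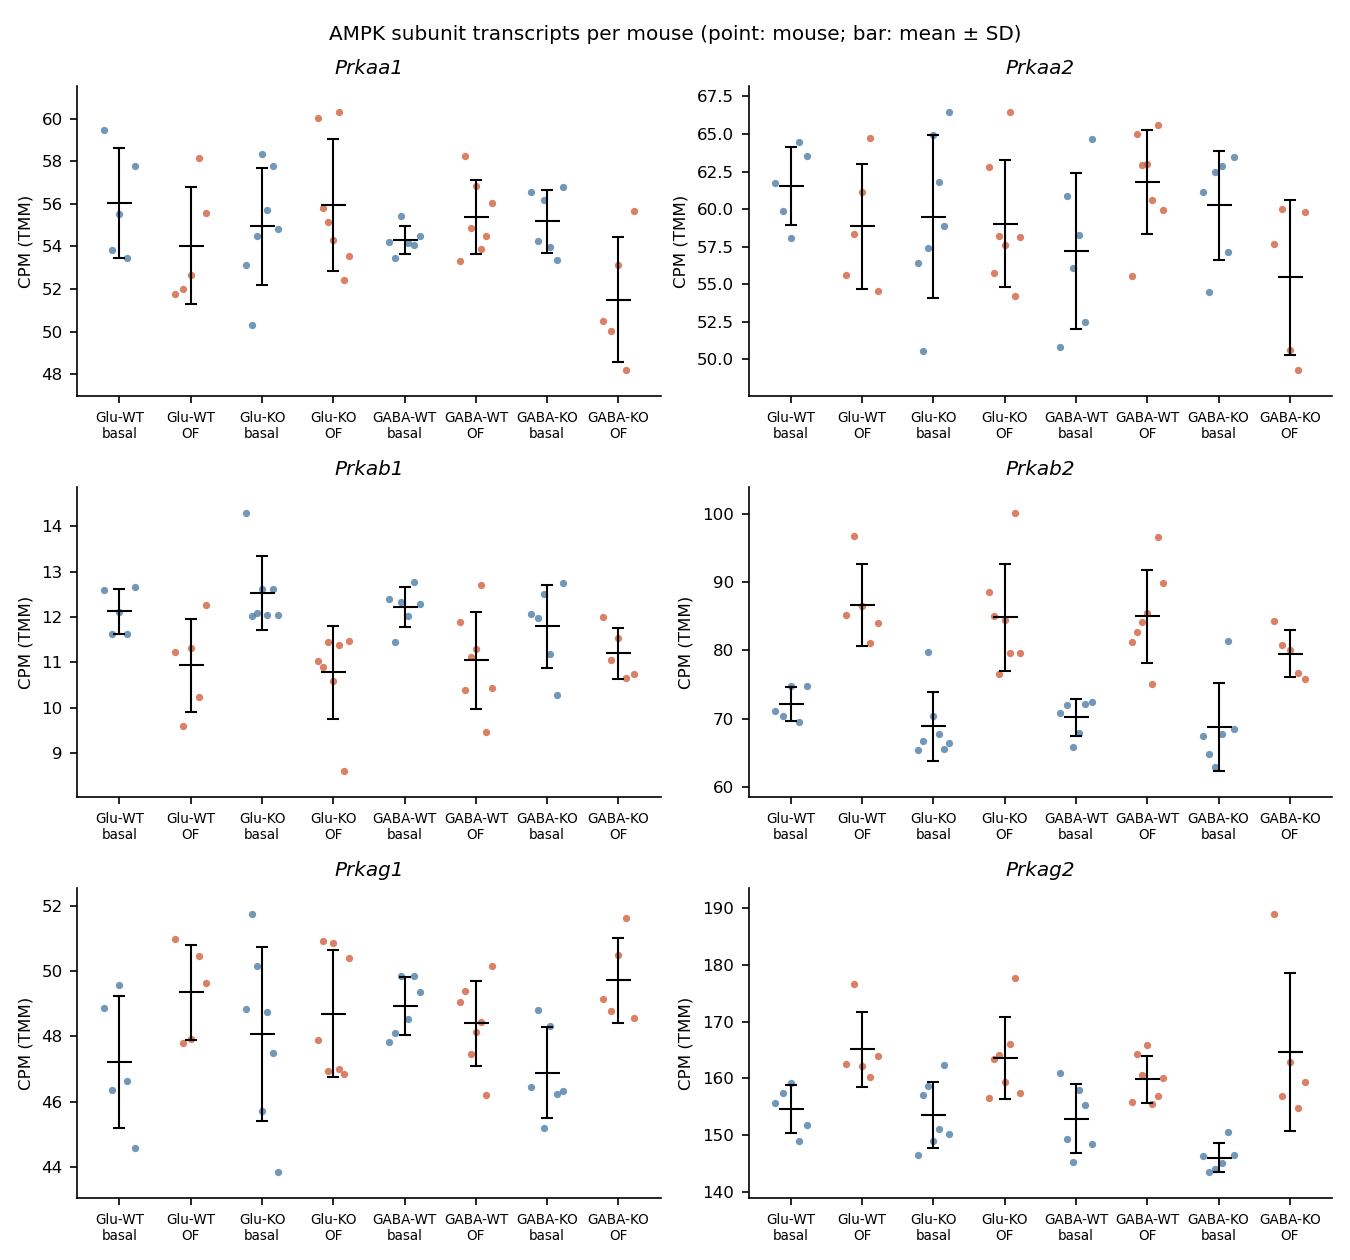
CPM of each AMPK subunit gene (vertical axes, on separate scales that do not start at 0) in every mouse of the 8 groups; blue points are basal mice, red points are open field (OF) mice, and black bars give the mean ± SD. Prkab2 lies higher in the open field group than in the basal group of the same line and genotype in all 4 pairs, and Prkab1 lies lower in all 4, with overlap in some pairs.

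Prkab2 encodes β2, the β subunit that is prominent in muscle and brain. In Glu-CB1-WT mice it measured 71.1, 70.5, 74.9, 69.6 and 74.7 CPM in the basal state and 85.1, 96.8, 86.4, 81.05 and 84.0 CPM after the open field. These groups did not overlap. In Glu-CB1-KO mice the lowest, median and highest levels were 65.5, 66.7 and 79.7 CPM in the basal state and 76.6, 84.5 and 100.1 CPM after the open field. Here 1 basal mouse, replicate 3, reached into the open field range, and 4 of the 7 open field mice lay above every basal mouse. In GABA-CB1-WT mice the lowest, median and highest levels were 65.9, 71.5 and 72.5 CPM in the basal state and 75.1, 84.2 and 96.6 CPM after the open field, again without overlap. In GABA-CB1-KO mice the basal levels were 62.9, 67.6 and 81.3 CPM, and the open field levels were 84.3, 80.8, 80.0, 76.7 and 75.8 CPM. The highest basal mouse, replicate 5, exceeded all open field mice but 1, and the other basal mice lay below them all.

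The open field difference of Prkab2 was of like size in the 4 combinations of line and genotype. On the log2 scale it was 0.26 ± 0.06 (SE) in Glu-CB1-WT, 0.30 ± 0.05 in Glu-CB1-KO, 0.28 ± 0.05 in GABA-CB1-WT and 0.21 ± 0.06 in GABA-CB1-KO mice. As ratios these are 1.20, 1.23, 1.21 and 1.16. With both genotypes together, the difference was 0.28 ± 0.04 in Glu-CB1 mice and 0.25 ± 0.04 in GABA-CB1 mice (12 against 12 mice each), and the lines differed by −0.04 ± 0.06. The titles of the samples end in a number that falls into a low and a high range within each line, whose meaning is not given. Within the low and the high range, the difference was 0.29 ± 0.05 and 0.24 ± 0.04 in Glu-CB1 mice, and 0.26 ± 0.04 and 0.23 ± 0.07 in GABA-CB1 mice.

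Few genes had a larger positive difference than Prkab2. Among Glu-CB1 mice, 210 of 15178 genes tested had a larger positive difference than Prkab2, and among GABA-CB1 mice 241 of 15216. Of the genes called higher in the open field, 141 of 200 in Glu-CB1 mice and 80 of 116 in GABA-CB1 mice had a smaller difference than Prkab2. The genes called in either direction came to 1.83% of those tested in Glu-CB1 mice and 0.966% in GABA-CB1 mice. Among the members, Prkab2, Prkag2 and Prkab1 were called in Glu-CB1 mice (3 of 6), and Prkab2 and Prkag2 in GABA-CB1 mice (2 of 6). Since the open field contrast chose the family for its Prkab2 difference, nothing is read from the rank of Prkab2 or from these counts.

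**Figure D2:**
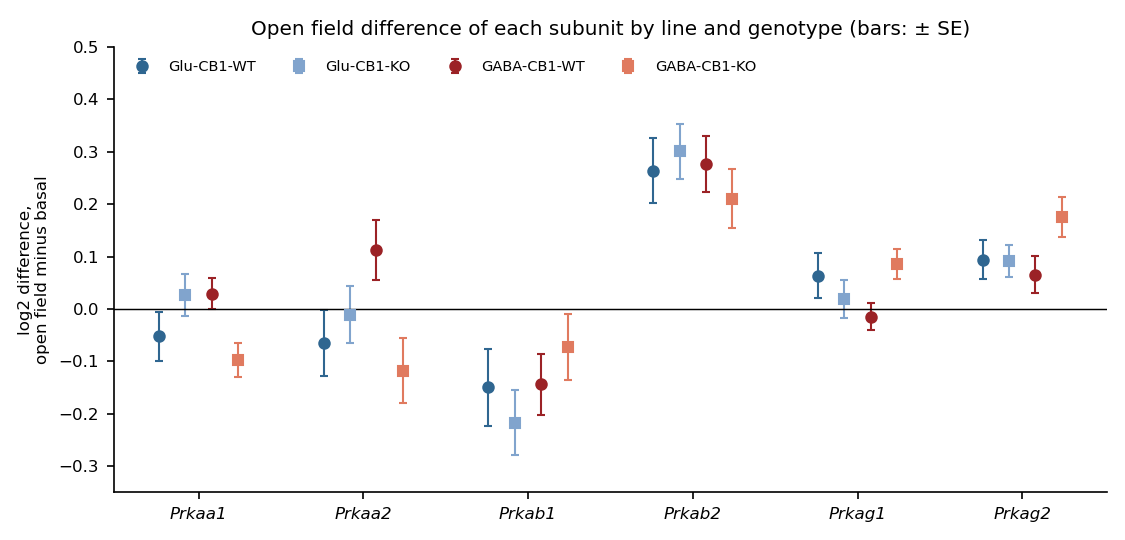
Log2 difference of each subunit, open field minus basal (vertical axis), by line and genotype; points are estimates and bars are ± SE. Prkab2 lies between 0.21 and 0.30 in all 4 combinations, Prkab1 lies below 0, Prkag2 lies above 0, and the signs of Prkaa1, Prkaa2 and Prkag1 vary.

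Prkab1 encodes β1, the other scaffold, and its open field difference had the opposite sign to that of Prkab2. In Glu-CB1-WT mice it measured 12.6, 11.6, 12.1, 11.6 and 12.7 CPM in the basal state and 11.2, 9.61, 11.3, 10.2 and 12.3 CPM after the open field. In this group 4 of 5 open field mice lay below every basal mouse. In Glu-CB1-KO mice the lowest, median and highest levels were 12.0, 12.1 and 14.3 CPM in the basal state and 8.60, 11.04 and 11.5 CPM after the open field, without overlap. In GABA-CB1-WT mice they were 11.5, 12.3 and 12.8 CPM in the basal state and 9.47, 11.1 and 12.7 CPM after the open field. In GABA-CB1-KO mice the basal levels were 10.3, 12.0 and 12.8 CPM and the open field levels were 12.0, 11.1, 11.5, 10.7 and 10.7 CPM. These last groups overlapped, and no open field mouse lay below the lowest basal mouse. The log2 difference was −0.19 ± 0.05 in Glu-CB1 mice and −0.11 ± 0.04 in GABA-CB1 mice, with values of −0.15 ± 0.07 for the CB1-WT and −0.22 ± 0.06 for the CB1-KO mice of the former, and −0.14 ± 0.06 for the CB1-WT and −0.07 ± 0.06 for the CB1-KO mice of the latter.

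Because the β transcripts differed in opposite directions, their balance differed between the states. Prkab2 made up 73.2 ± 1.83% (SD, n = 12) of the β transcripts per kb in the basal state of the Glu-CB1 line and 79.1 ± 2.54% after the open field. Each of the 12 open field mice of this line (76.3% to 84.9%) lay above each of the 12 basal mice (68.8% to 76.0%). In GABA-CB1 mice the share was 73.5 ± 2.14% in basal and 78.1 ± 2.23% in open field mice. Here the ranges overlapped (70.8% to 79.2% and 74.0% to 83.1%), and 3 of 12 open field mice lay above every basal mouse. The highest basal share was that of GABA-CB1-KO replicate 5. Without this mouse, singled out for its share, 11 of 12 open field mice lay above every basal mouse, whose highest share was then 75.2%. Leaving out any 1 other mouse of this line left 2 or 3 open field mice above every basal mouse. The levels of Prkab1 and Prkab2 were also opposed within groups: after the group means were subtracted, r was −0.63 over the 48 libraries (−0.76 without subtraction). These values come from the same libraries and share their normalization.

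**Figure D3:**
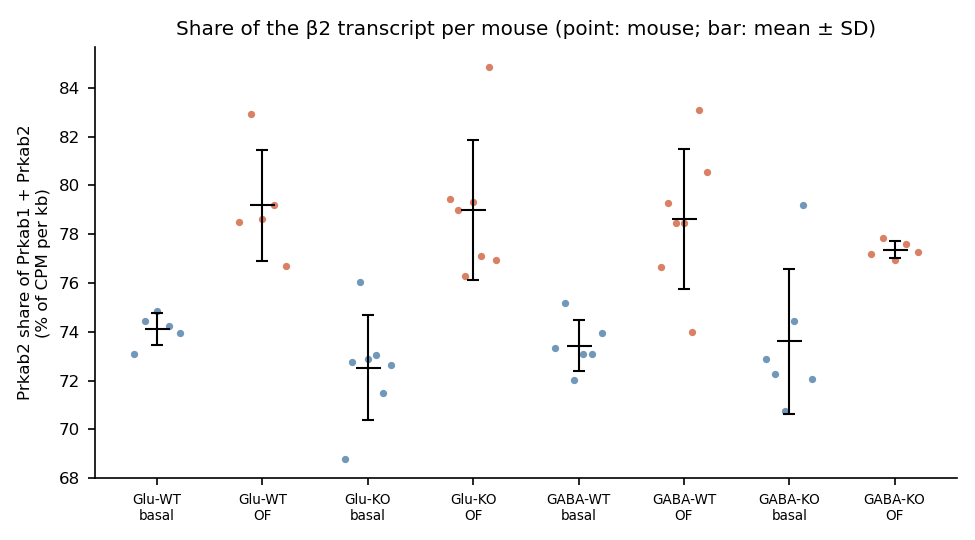
Share of Prkab2 in the sum of Prkab1 and Prkab2 (percent of CPM per kb, on an axis that does not start at 0) in every mouse of the 8 groups; blue points are basal mice, red points are open field (OF) mice, and black bars give the mean ± SD. In Glu-CB1 mice the basal and open field mice do not overlap. In GABA-CB1 mice they do, with 3 of 12 open field mice above every basal mouse. That number is 11 of 12 without GABA-CB1-KO basal replicate 5, and 2 or 3 without any 1 other mouse of the line.

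Prkag2 encodes γ2, a nucleotide-binding subunit, and had the next largest positive open field difference after Prkab2 in both lines. It measured 156, 157, 159, 149 and 152 CPM in basal Glu-CB1-WT mice and 163, 177, 162, 160.2 and 164 CPM after the open field, without overlap. In Glu-CB1-KO mice the lowest, median and highest levels were 146, 151 and 162 CPM in the basal state and 157, 163 and 178 CPM after the open field. In GABA-CB1-WT mice they were 145, 152 and 161 CPM in the basal state and 155, 160.0 and 166 CPM after the open field. Both of these pairs overlapped. In GABA-CB1-KO mice the basal levels were 143, 146 and 151 CPM, and the open field levels were 189, 157, 163, 155 and 159 CPM, all above every basal mouse. The log2 difference was 0.09 ± 0.02 in Glu-CB1 mice and 0.12 ± 0.03 in GABA-CB1 mice. Over the 48 libraries, Prkag2 correlated with Prkab2 with r = 0.70, and with r = 0.44 after the group means were subtracted.

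The remaining members had small open field differences with both genotypes together. Prkag1, for γ1, differed by 0.04 ± 0.03 in Glu-CB1 mice and 0.03 ± 0.02 in GABA-CB1 mice on the log2 scale, with group means between 46.9 and 49.7 CPM. Prkaa1, for α1, differed by −0.01 ± 0.03 and −0.03 ± 0.02, with group means between 51.5 and 56.0 CPM. Prkaa2, for α2, differed by −0.03 ± 0.04 and 0.01 ± 0.05, with group means between 55.5 and 61.8 CPM. In the GABA-CB1 line the signs were opposite in CB1-WT and CB1-KO mice. There Prkaa2 differed by 0.11 ± 0.06 and −0.12 ± 0.06, Prkaa1 by 0.03 ± 0.03 and −0.10 ± 0.03, and Prkag1 by −0.01 ± 0.03 and 0.09 ± 0.03. In the Glu-CB1 line the values by genotype lay between −0.06 and 0.06. The α2 share of the α transcripts per kb was 38.04 ± 1.46% and the γ2 share of γ1 and γ2 was 60.6 ± 1.42% (SD, n = 48). In either line, the ranges of both shares overlapped between the states.

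The loss of CB1 was the comparison that the choice of the family did not use, and none of the 6 subunits was called between CB1-KO and CB1-WT mice (edgeR's quasi-likelihood test, Benjamini-Hochberg adjusted p under 0.05). Of all genes, 0.0198% were called in basal and 0.272% in open field mice of the Glu-CB1 line, and 0.245% and 0.0199% in those of the GABA-CB1 line. With both states together the calls came to 0.257% in Glu-CB1 mice and 0.355% in GABA-CB1 mice, where 7.34% and 8.27% of all genes but no subunit had an unadjusted p under 0.05. For Prkab2, the log2 difference of CB1-KO minus CB1-WT was −0.07 in the basal Glu-CB1 line (95% confidence interval −0.17 to 0.04), −0.03 after the open field (−0.16 to 0.10), −0.03 in the basal GABA-CB1 line (−0.14 to 0.08) and −0.10 after the open field (−0.21 to 0.02). All 4 intervals include 0. With both states together, Prkab2 differed by −0.05 ± 0.04 (SE) in Glu-CB1 mice and by −0.06 ± 0.04 in GABA-CB1 mice (adjusted p = 0.885 and 0.728 by edgeR).

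No subunit reached an unadjusted p under 0.05 in either state of the Glu-CB1 line, beside 3.57% of all genes in basal and 6.97% in open field mice. Of the 6 subunits, 2 did so in each state of the GABA-CB1 line, beside 8.16% of all genes in basal and 13.2% in open field mice. In the basal state these were the γ genes, with Prkag1 at −0.06 ± 0.03 and Prkag2 at −0.07 ± 0.03 (adjusted p = 0.608 and 0.574 by edgeR). After the open field these were the α genes. Prkaa2 measured 57.7, 60.0, 50.6, 49.2 and 59.8 CPM in GABA-CB1-KO mice, against a lowest, median and highest level of 55.6, 62.9 and 65.6 CPM in GABA-CB1-WT mice. Its log2 difference was −0.16 ± 0.06, and that of Prkaa1 was −0.10 ± 0.04 (adjusted p = 0.296 and 0.312 by edgeR). None of these passed adjustment.

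**Figure D4:**
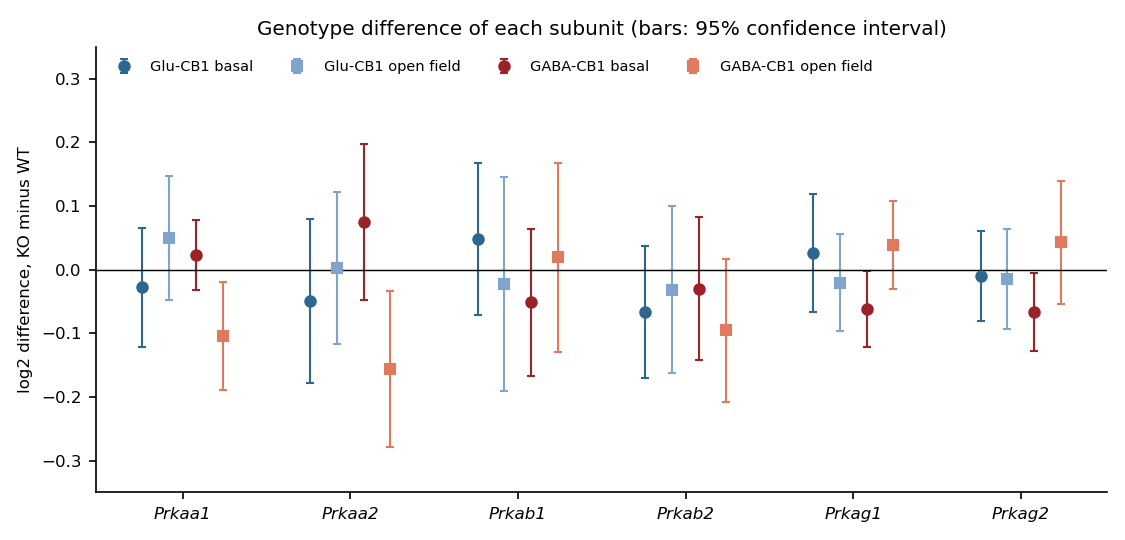
Log2 difference of each subunit, CB1-KO minus CB1-WT (vertical axis), in the 4 comparisons of line and state; points are estimates and bars are 95% confidence intervals. Most intervals include 0; those of Prkag1 and Prkag2 in the basal GABA-CB1 line and those of Prkaa1 and Prkaa2 in GABA-CB1 mice after the open field lie below 0 before adjustment over all genes.

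Whether the open field difference depended on genotype was tested as the interaction of both. For Prkab2 it was 0.04 ± 0.08 in Glu-CB1 mice (adjusted p = 0.99993 by edgeR) and −0.07 ± 0.08 in GABA-CB1 mice (adjusted p = 0.706). No member of the family reached an unadjusted p under 0.05 in Glu-CB1 mice, beside 2.47% of all genes. For the GABA-CB1 line 4 of 6 did, beside 14.6% of all genes, and no gene passed adjustment in either line (share called 0%; 379 genes in Glu-CB1 mice and 2237 in GABA-CB1 mice had an unadjusted p under 0.05, and DESeq2 called 0 and 63 genes, none of them a member). In these 4, the open field difference of the α genes was lower in CB1-KO than in CB1-WT mice. The interaction was −0.13 ± 0.04 for Prkaa1 and −0.23 ± 0.08 for Prkaa2. The open field difference of the γ genes was higher in CB1-KO mice, with an interaction of 0.10 ± 0.04 for Prkag1 and 0.11 ± 0.05 for Prkag2. The adjusted p of these 4 interactions were 0.227, 0.238, 0.257 and 0.334 by edgeR. Without GABA-CB1-KO open field replicate 1, the mouse at 189 CPM, the value for Prkag2 was 0.06. GABA-CB1-KO open field replicate 4, the library with the highest choroid plexus sum, had the lowest level of both α genes in its group, at 48.2 CPM for Prkaa1 and 49.2 CPM for Prkaa2; without the 3 libraries high in choroid plexus genes, the interaction of Prkaa1 was −0.11.

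The genotype effect was also compared between the lines, which asks whether losing CB1 from glutamatergic neurons differs from losing it in GABAergic neurons. No member was called in the basal state (0.279% of all genes called) or after the open field (0.568%), and 0 and 1 of them had an unadjusted p under 0.05 (8.56% and 10.8% of all genes). The lowest adjusted p over the members was 0.652 in basal and 0.323 in open field mice by edgeR, the latter for Prkaa1 (−0.15 ± 0.06). Between the CB1-WT mice of both lines, no member was called either (0% of all genes by edgeR and 0 genes by DESeq2; 593 genes or 3.89%, and none of the members, had an unadjusted p under 0.05), and Prkab2 differed by −0.03 (95% confidence interval −0.10 to 0.04).

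The balance of the subunits was also compared by genotype, and no test passed. Over 3 shares and 4 comparisons, 12 two-sided exact permutation tests gave a lowest p of 0.131 and a lowest adjusted p of 0.788. That lowest p was for the β2 share in the basal Glu-CB1 line, at 72.5 ± 2.15% in 7 CB1-KO mice and 74.1 ± 0.665% in 5 CB1-WT mice.

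The wider AMPK pathway was described with 6 lists of 64 genes, of which 63 could be tested. In the Glu-CB1 line 5 of the 63 were called higher after the open field and none lower (1.32% and 0.507% of all genes), with a median log2 difference of 0.02 over the lists and −0.01 over all genes. Of the same genes 4 were called higher and none lower in GABA-CB1 mice (0.762% and 0.204% of all genes), with a median of 0.02 over the lists and of 0.00 over all genes. Called or not, 45 of the 63 had a positive difference in Glu-CB1 mice and 47 in GABA-CB1 mice. The share of all genes with a positive difference was not counted. The lists were chosen with earlier results of these data known, so these counts are a description and no enrichment is read from them. The genes called in GABA-CB1 mice, Nuak1, Sik1, Pfkfb3 and Adipor2, were all called in Glu-CB1 mice too, and Ppm1f was called in addition there. Leaving out the 3 libraries high in choroid plexus genes left 0 of these calls in GABA-CB1 mice, where the genes called fell from 147 to 32 in all, and 5 in Glu-CB1 mice.

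None of the 8 upstream kinases and their partners was called in either line. Stk11, which encodes the main AMPK-activating kinase LKB1, measured 46.3 ± 2.40 CPM (SD, n = 12) in the basal state and 46.7 ± 2.30 CPM after the open field in Glu-CB1 mice, and 47.2 ± 2.36 and 46.2 ± 2.72 CPM in GABA-CB1 mice. Camkk2, whose product links calcium to AMPK, measured 183 ± 12.6 and 187 ± 10.96 CPM in Glu-CB1 mice and 196 ± 8.95 and 198 ± 16.6 CPM in GABA-CB1 mice. Map3k7, which encodes TAK1, measured 82.2 ± 3.38 and 79.9 ± 3.71 CPM in Glu-CB1 mice and 82.6 ± 3.47 and 81.4 ± 4.12 CPM in GABA-CB1 mice. For these 3 genes, the 95% confidence intervals of the log2 difference lay between −0.10 and 0.10 in both lines. Those of Camkk1, from the same list, lay above 0 before adjustment. Its log2 difference was 0.12 (0.03 to 0.21) in Glu-CB1 mice and 0.10 (0.03 to 0.17) in GABA-CB1 mice (adjusted p = 0.154 and 0.179 by edgeR).

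Of 11 regulators, Adipor2 and Ppm1f were called higher in Glu-CB1 mice and Adipor2 in GABA-CB1 mice. Called or not, 9 of the 11 had a positive difference in Glu-CB1 mice and 10 in GABA-CB1 mice. Adipor2 encodes an adiponectin receptor. It went from 63.2 ± 10.3 to 78.0 ± 6.27 CPM in Glu-CB1 mice (log2 difference 0.30 ± 0.07, adjusted p = 0.0223 by edgeR) and from 65.3 ± 5.68 to 75.4 ± 7.46 CPM in GABA-CB1 mice (0.21 ± 0.05, adjusted p = 0.0488). Ppm1f encodes a phosphatase of calmodulin-dependent kinases. It went from 104 ± 5.37 to 114 ± 4.43 CPM in Glu-CB1 mice (0.13 ± 0.03, adjusted p = 0.0117), and its log2 difference in GABA-CB1 mice was 0.09 ± 0.03 (adjusted p = 0.139).

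Of the 13 AMPK-related kinases, which LKB1 also activates for the most part, 12 were tested and the same 2 were called higher in both lines. Called or not, 11 of the 12 had a positive difference in Glu-CB1 mice and 10 in GABA-CB1 mice. Sik1, a salt-inducible kinase whose transcript is induced by cAMP, went from 7.04 ± 1.14 to 10.1 ± 2.34 CPM in Glu-CB1 mice (log2 difference 0.52 ± 0.11, adjusted p = 0.0111 by edgeR) and from 7.31 ± 1.71 to 9.85 ± 1.74 CPM in GABA-CB1 mice (0.44 ± 0.11, adjusted p = 0.0485). Nuak1, a kinase with a role in axon branching, went from 77.7 ± 6.52 to 87.9 ± 4.51 CPM (0.18 ± 0.04, adjusted p = 0.0168) and from 80.5 ± 6.00 to 89.9 ± 4.18 CPM (0.17 ± 0.03, adjusted p = 0.0159). Its relative Nuak2 was the 1 pathway gene called in the comparison of genotype effects between the lines after the open field. It measured 1.69 ± 0.318 CPM in Glu-CB1-KO and 2.24 ± 0.268 CPM in Glu-CB1-WT mice, against 2.45 ± 0.184 CPM in GABA-CB1-KO and 1.88 ± 0.320 CPM in GABA-CB1-WT mice (difference of log2 differences 0.78 ± 0.19, adjusted p = 0.0498), and this call was lost in 18 of the 24 fits that left out 1 library. It was kept without Glu-CB1-WT replicate 1, Glu-CB1-KO replicates 6 or 7, GABA-CB1-WT replicates 1 or 3, or GABA-CB1-KO replicate 1.

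Of 12 metabolic substrates, Pfkfb3 was called. It encodes the enzyme that makes the glycolytic activator fructose 2,6-bisphosphate. It rose from 58.1 ± 5.31 to 67.9 ± 5.71 CPM in Glu-CB1 mice (log2 difference 0.23 ± 0.05, adjusted p = 0.0118 by edgeR) and from 57.8 ± 4.11 to 65.0 ± 3.07 CPM in GABA-CB1 mice (0.17 ± 0.03, adjusted p = 0.0171). None of 17 growth and autophagy substrates, such as Ulk1 and Tsc2, and none of 3 neuronal substrates was called in either line. The calls of Sik1 and Adipor2 were close to the threshold in GABA-CB1 mice. They were lost in 20 and 16 of the 24 fits without 1 library, while Nuak1 and Pfkfb3 were called in all 24. Both calls were kept without GABA-CB1-WT basal replicate 2, GABA-CB1-KO basal replicate 5, GABA-CB1-WT open field replicate 5 or GABA-CB1-KO open field replicate 1. That of Adipor2 was also kept without GABA-CB1-WT basal replicate 1, GABA-CB1-KO basal replicate 4, GABA-CB1-WT open field replicate 3 or GABA-CB1-KO open field replicate 2.

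**Figure D5:**
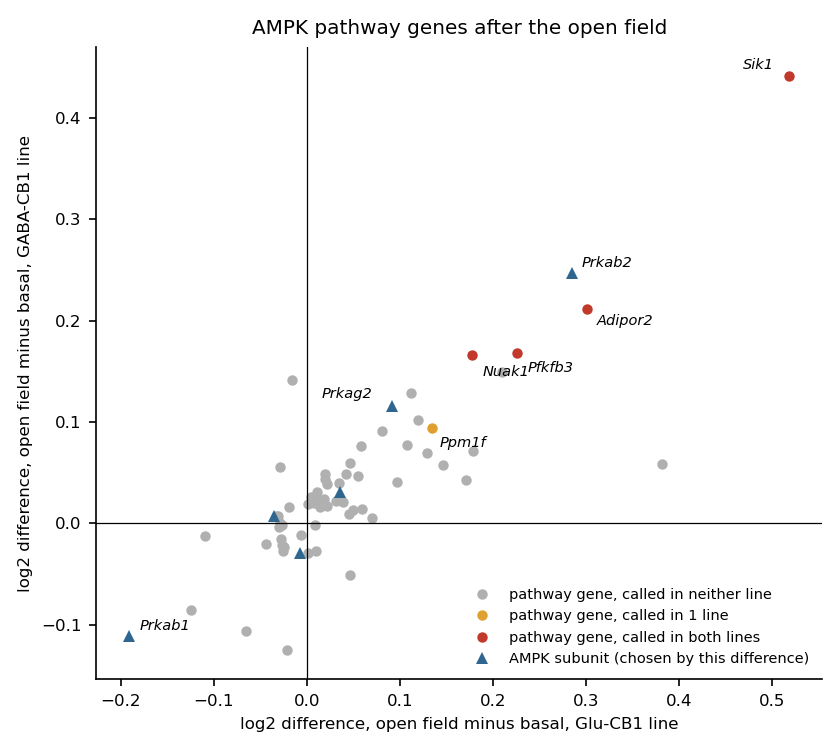
Log2 difference, open field minus basal, in Glu-CB1 mice (horizontal axis) and in GABA-CB1 mice (vertical axis) for the pathway genes tested in both (circles) and the 6 subunits (triangles, shown as a description). Sik1, Nuak1, Pfkfb3 and Adipor2 were called in both lines, Ppm1f in Glu-CB1 mice, and the remaining pathway genes in neither.

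As a reference for the stimulus, 12 activity and stress genes were listed, and all 12 had a positive difference in both lines. Of these, 9 were called higher in Glu-CB1 mice and 8 in GABA-CB1 mice (1.32% and 0.762% of all genes). Their median log2 differences were 0.51 and 0.56. The study chose its open field mice partly on Arc induction, so this list is not independent of that choice. The correlation of Prkab2 with these 12 genes over the 48 libraries ranged from r = 0.33 for Npas4 to r = 0.81 for Fos, both immediate early genes. After the group means were subtracted, it ranged from −0.01 for Npas4 to 0.38 for Fkbp5, a glucocorticoid-induced chaperone gene, and was 0.37 for Fos.

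The genes whose level was most like that of Prkab2 over the 48 libraries were sought among 15569 genes. The highest Pearson correlations of log2 CPM were those of P4ha1, which encodes a collagen prolyl hydroxylase subunit (r = 0.88), Mtmr4, a phosphoinositide phosphatase (0.87), Pfkfb3 (0.86), Gpt2, a mitochondrial alanine aminotransferase (0.84), and Errfi1, a feedback inhibitor of the EGF receptor (0.84). The lowest were those of Wnt9a, a Wnt ligand (−0.81), and Filip1, a filamin-binding protein (−0.80). After the group means were subtracted, the highest were Mtmr4 (0.81), P4ha1 (0.76), 2410131K14Rik (0.70), Kif3b, a kinesin motor (0.69), and Pfkfb3 (0.69), so P4ha1, Mtmr4 and Pfkfb3 were among the top 5 both ways. P4ha1 went from 56.1 ± 3.01 to 69.9 ± 11.6 CPM after the open field in Glu-CB1 mice and from 54.9 ± 5.79 to 65.6 ± 5.11 CPM in GABA-CB1 mice. Mtmr4 went from 133 ± 9.41 to 151 ± 12.5 CPM and from 129 ± 8.20 to 146 ± 8.15 CPM. These correlations describe libraries that share groups and normalization, and no test was made of them.

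The genes next to Prkab2 on chromosome 3 were not called after the open field. Of 7 genes listed within 250 kb, the 4 that could be tested were Chd1l, Fmo5, Pde4dip and Sec22b, with log2 differences between 0.04 and 0.08 in Glu-CB1 mice and between −0.11 and 0.04 in GABA-CB1 mice. The lowest adjusted p among them was 0.375 by edgeR, for Pde4dip in Glu-CB1 mice.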

How the data were processed

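Hippocampal Cornu Ammonis of 48 mice was sequenced, 1 library per mouse. The study selected mice for sequencing partly on tissue purity, behavior and Arc induction. Per the study's methods, the authors used NuGEN's Ovation amplification, trimmed single-end reads, aligned them with STAR 2.6.0a to mm10 and counted them by strand with featureCounts 1.6.2. The values they deposited are raw counts for 24421 genes. The reads were counted without molecular identifiers. Each library is 1 mouse, so the spread between mice is the error used.

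Groups were taken from the sample labels. Each comparison was fitted with edgeR 4.0.16 in R 4.3.3 (quasi-likelihood test, TMM, filterByExpr) on its own libraries, with Benjamini-Hochberg adjustment over all genes, and genes were called at an adjusted p under 0.05. Open field comparisons included genotype. SEs came from the F statistic, levels are CPM over all 48 libraries, and log2 CPM used a prior count of 2. Shares were compared by two-sided exact permutation, and marker sums by 100000 resamples. The fits were tested on simulated data. The members and lists were chosen with earlier results of these data known. Named are the 6 members, called pathway genes (at most 4 per list), the 3 direct upstream kinases, the genes most like Prkab2 and its neighbors. Camkk1 was named outside this rule, for its open field intervals above 0. Alternatives were DESeq2 1.42.0, RLE factors, other filters, 1 fit of all libraries, a number range covariate, a replicate block and leaving out libraries.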

Additional observations from a re-analysis of the deposited data

Results flagged for a closer look

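In 6 of 48 combinations of subunit and group, 1 mouse lay far from the others of its group by Dixon's criterion, where chance gives about 1 in 20. For Prkab1, Glu-CB1-KO basal replicate 1 measured 14.3 CPM (the others 12.0 to 12.6), and Glu-CB1-KO open field replicate 6 measured 8.60 CPM (the others 10.6 to 11.5). For Prkab2, GABA-CB1-KO basal replicate 5 measured 81.3 CPM (the others 62.9 to 68.4), and Glu-CB1-KO basal replicate 3 measured 79.7 CPM (the others 65.5 to 70.5). For Prkag2, GABA-CB1-KO open field replicate 1 measured 189 CPM (the others 155 to 163), and Glu-CB1-WT open field replicate 2 measured 177 CPM (the others 160.2 to 164).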

How the results depend on the processing

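The Prkab2 open field difference stayed between 0.27 and 0.29 (log2) in the Glu-CB1 line and between 0.24 and 0.25 in the GABA-CB1 line under 8 alternatives each, and between 0.26 and 0.31 and between 0.23 and 0.27 without any 1 library. No subunit was called in any genotype or line comparison under any alternative, and no share was (0 called with any library left out). The number of pathway genes called in the Glu-CB1 line was 8 with DESeq2 in place of 5, and 5 to 7 without 1 library. In the GABA-CB1 line it was 2 in place of 4 without a filter beyond 1 count, 0 without the 3 libraries high in choroid plexus genes (chosen after seeing the data), and 2 to 5 without 1 library. It was 2 for 16 of the 24 libraries: GABA-CB1-WT basal replicates 3 to 6, GABA-CB1-KO basal replicates 1, 2, 3 and 6, GABA-CB1-WT open field replicates 1, 2, 4, 6 and 7, and GABA-CB1-KO open field replicates 3 to 5. The cause was not tested. Same-numbered mice of a line did not deviate together (r from −0.33 to 0.38 over 65 pairs), and 13 correlated best with their own number. Whether same-numbered mice shared a litter or a handling day is not given, and these correlations cannot decide it. With the replicate number as a block, 0 pathway genes were called in the GABA-CB1 line and 5 in the Glu-CB1 line. No subunit was called with the block in a genotype or line comparison. Calls of subunits in the open field comparisons were not counted under the alternatives. The number of all genes called changed by over 1.5 times as follows. With DESeq2, it was 492 in place of 277 (open field, Glu-CB1 line), 270 in place of 147 (open field, GABA-CB1 line), 12 in place of 3 and 123 in place of 41 (genotype, Glu-CB1 basal and open field), 110 in place of 37 and 152 in place of 3 (genotype, GABA-CB1 basal and open field), 106 in place of 39 and 130 in place of 54 (genotype with both states), 79 in place of 43 and 200 in place of 87 (genotype between the lines, basal and open field), and 63 in place of 0 (genotype by state, GABA-CB1 line). With the replicate block, it was 37 (open field, GABA-CB1 line), 3 (genotype, Glu-CB1 open field), 8 and 1 (genotype, GABA-CB1 basal and open field), 96 and 19 (genotype with both states, Glu-CB1 and GABA-CB1), and 56 (genotype between the lines, open field). In 1 fit of all 48 libraries, it was 106 (genotype, GABA-CB1 open field), 7 (genotype, Glu-CB1 basal) and 53 (genotype between the lines, open field). With the number range as a covariate, it was 24 (genotype, GABA-CB1 basal) and 16 (genotype, Glu-CB1 open field). Without the libraries high in choroid plexus genes, it was 32 (open field, GABA-CB1 line) and 73 (genotype with both states, Glu-CB1).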
